A study of Homo sapiens with 4 samples.

Results

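The genes of the LSD1 corepressor complex were examined for FOXA2 binding in PC3 cells, as peaks of chromatin immunoprecipitation followed by sequencing (ChIP-seq). Peaks were taken as members where the summit, the base with the strongest signal, lay in 1 of 7 hg19 windows that hold a gene and about 50 kb on each side. The windows surround KDM1A, RCOR1, HDAC1, HDAC2, PHF21A, HMG20B and GSE1 and add up to 1.34 Mb. They held 2 of the 14846 peaks of the GSK2879552 list and 8 of the 21308 peaks of the vehicle list, that is 10 of 36154 peaks at 8 distinct sites.

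PC3 is an androgen-independent human prostate cancer cell line, and GSK2879552 is an irreversible inhibitor of the histone demethylase LSD1. The treated group received 50 µM GSK2879552 for 4 hours in medium with 5% charcoal-stripped serum, and the second group received vehicle; the length of the vehicle treatment is not given separately. Each group had 2 samples labelled as technical replicates, which are sequencing lanes, and 1 peak list that covers both, so all values compare 2 libraries, with no test and no measure of the spread between cultures. ATAC-seq stands in the sample descriptions, but titles and series speak of FOXA2 ChIP-seq, and that name was followed.

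LSD1, the product of KDM1A, removes methyl groups from histone H3 and acts mostly within a larger corepressor complex. In that complex RCOR1 (CoREST) is the scaffold that lets LSD1 act on nucleosomes, HDAC1 and HDAC2 remove acetyl groups from histones, PHF21A (BHC80) binds the unmethylated tail of histone H3, HMG20B (BRAF35) is an HMG-box protein that contacts DNA, and GSE1 is a coiled-coil protein found with the complex. FOXA2 is a forkhead transcription factor that can bind its sites in closed chromatin. The comparison asks whether FOXA2 occupancy at the genes of the complex differed when the enzyme of that complex was inhibited.

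FOXA2 peaks stood at KDM1A and HDAC1 in both lists, at HDAC2, PHF21A and RCOR1 in vehicle alone, and at GSE1 and HMG20B in neither. Both member peaks of the GSK2879552 list lay over a vehicle peak, as did 89.2% of all GSK2879552 peaks. Both had fewer fragments at the summit than their vehicle partner, as had 78.0% of all pairs. Of the 8 vehicle member peaks, 6 had no GSK2879552 peak over them, beside 38.0% of all vehicle peaks. All 6 were weaker, in fragments at the summit, than both that did. The counts are too small to set the members apart from the whole lists.

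**Figure D1:**
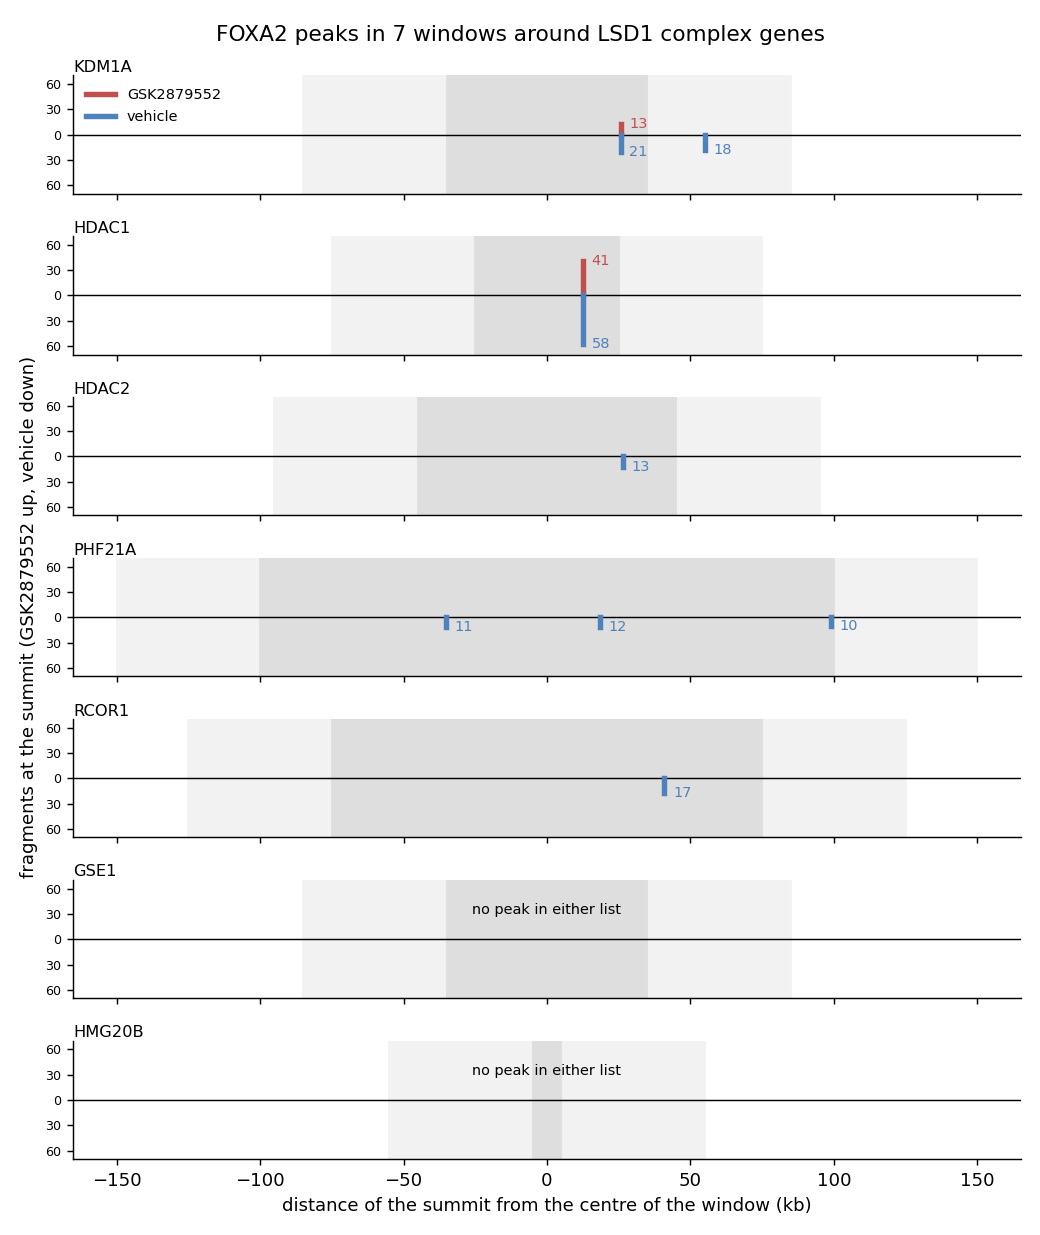
Each panel is 1 window, with the distance of the summit from the window's centre in kb on the horizontal axis and the number of fragments at the summit on the vertical axis, GSK2879552 upward and vehicle downward. Light grey is the window and dark grey is the window less 50 kb at each end; a bar with its number is 1 peak. HDAC1 has the highest bars, 41 in GSK2879552 and 58 in vehicle, and the panels of GSE1 and HMG20B are empty.

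Fewer members were called after GSK2879552, but the counts are too small to set them apart from the whole lists. The ratio of member peaks, GSK2879552 over vehicle, was 0.250 with an exact 95% interval of 0.0259 to 1.25. That interval includes the ratio of the whole lists, 0.697. Intervals here and below cover counting error only and take the 2 lists as independent. Member peaks numbered 1.49 per Mb of window in GSK2879552 and 5.97 per Mb in vehicle, against 4.90 and 7.04 per Mb from the first to the last peak of the chromosomes. The order against the genome depends on the window for vehicle: with 50 kb taken off each end, members numbered 3.125 per Mb in GSK2879552, still below the genome, and 10.9 per Mb in vehicle, above it. A vehicle peak had no GSK2879552 counterpart at 6 of 8 member sites, and in 38.0% of the whole vehicle list. The overlapped share of vehicle members was thus 25.0% (95% interval 3.19 to 65.1), an interval that holds the 62.0% of all vehicle peaks. That share rests on single sites: it was 14.3% without the HDAC1 window and 16.7% without the KDM1A window, each of which left 1 GSK2879552 member, and 40.0% without the PHF21A window. It was also 40.0% with both lists limited to a −log10 q of at least 5, and 50.0% in a vehicle list shortened to the length of the GSK2879552 list. Whole-list shares at these settings are not given here, so neither value can be set against the 62.0%. Both settings drop weak vehicle peaks. Of the whole vehicle list, 19.6% of the weakest of 10 equal bins by −log10 p was overlapped, and 100% of the strongest. None of the 2 GSK2879552 member peaks lacked a vehicle counterpart, beside 10.8% of all GSK2879552 peaks.

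By window, 5 of 7 held no GSK2879552 peak, and 2 of 7 held no vehicle peak. Of all 15015 genome tiles of 200 kb, 51.3% held no GSK2879552 peak and 42.4% held no vehicle peak. A vehicle peak with no GSK2879552 peak beside it in the window was the state of 3 of 7 windows. That is a share of 42.9% (95% interval 9.90 to 81.6), and the interval includes the 11.0% of the tiles. Windows and tiles with no vehicle peak could not be in this state, yet they count in both shares. The tiles include gene-poor stretches and are all of 1 length, whereas the windows run from 110 to 300 kb.

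The windows can also be read by chromosome, because the density of peaks differed between chromosomes. Chromosome 14, which carries RCOR1, had 7.74 GSK2879552 and 10.9 vehicle peaks per Mb. Chromosome 6 with HDAC2 had 4.84 and 6.92 per Mb (GSK2879552 and vehicle), chromosome 11 with PHF21A 4.74 and 6.89, and chromosome 1 with KDM1A and HDAC1 3.68 and 5.40. Chromosomes 16 and 19, which carry the windows with no peak, were the sparsest of these: GSE1 lies on chromosome 16 with 2.50 GSK2879552 and 3.24 vehicle peaks per Mb, and HMG20B on chromosome 19 with 2.31 and 3.32.

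The window of KDM1A, which encodes LSD1 itself, held 1 site in both lists and 1 in vehicle alone. At the shared site 13 fragments covered the summit in GSK2879552 (chr1:23400626-23400810, hg19) and 21 in vehicle (chr1:23400569-23400856). The summits were 20 bp apart, and the GSK2879552 interval of 185 bp lay wholly within the vehicle interval of 288 bp. Local backgrounds, the fragments the peak caller took as the level without binding, were 1.36 in GSK2879552 and 1.21 in vehicle. The ratio of fragments scaled for the libraries' background floors was 0.618 (exact 95% interval 0.284 to 1.29), a log2 ratio of -0.69. The interval includes 1, so a lower number at this site was not shown at this depth. The site lay 110.7 kb into the 170 kb window and 59.3 kb from its end in both lists.

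In the authors' deposited values the shared KDM1A site was an ordinary peak. Its −log10 p was 9.62 in the GSK2879552 list, where it exceeded 27.0% of peaks, and 19.8 in the vehicle list, where it exceeded 70.6%. The lists differ in length and content, so these positions are each within their own list and show no change. The second KDM1A site, at chr1:23430018-23430324, had no GSK2879552 peak and 18 fragments in vehicle over a background of 1.65. It lay in the outer 50 kb of the window, 29.8 kb from its end, not in the middle part. On that side LUZP1 is the next coding gene in the RefSeq order. The shared site, 29480 bp away, held the nearest GSK2879552 summit. The second KDM1A site was the strongest of the 6 vehicle-only members by fragments, and 50.1% of the vehicle list was weaker by −log10 p.

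The window of HDAC1, a histone deacetylase of the complex, held the strongest site of the set. In GSK2879552 the summit at chr1:32787343-32787702 had 41 fragments over a background of 2.02, and in vehicle the summit at chr1:32787319-32787709 had 58 over a background of 2.07. The summits were 5 bp apart and the intervals 360 bp (GSK2879552) and 391 bp (vehicle) wide, the smaller inside the larger. The scaled ratio was 0.705 (exact 95% interval 0.461 to 1.07), a log2 ratio of -0.50, and again the interval includes 1. The site ranked 683 of 14846 in the GSK2879552 list and 430 of 21308 in the vehicle list by −log10 p. Its fold enrichment over the local background was 13.9 in the GSK2879552 list and 19.2 in the vehicle list, both the authors' values. It was the only peak of the window, 87.5 kb from its start and 62.5 kb from its end, and the nearest other peak of its own list was 249954 bp away in GSK2879552 and 359131 bp away in vehicle.

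The 2 shared sites can be set beside all 13200 pairs of peaks called in both lists. Before scaling, fragments were fewer in GSK2879552 at 2 of 2 member pairs and at 78.0% of all pairs. The median log2 ratio, GSK2879552 over vehicle, was -0.60 over the 2 member pairs and -0.32 over all pairs (interquartile range -0.57 to -0.08). The KDM1A ratio was below that range, with 15.4% of all pairs lower, and the HDAC1 ratio was within it, with 31.4% of all pairs lower.

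**Figure D2:**
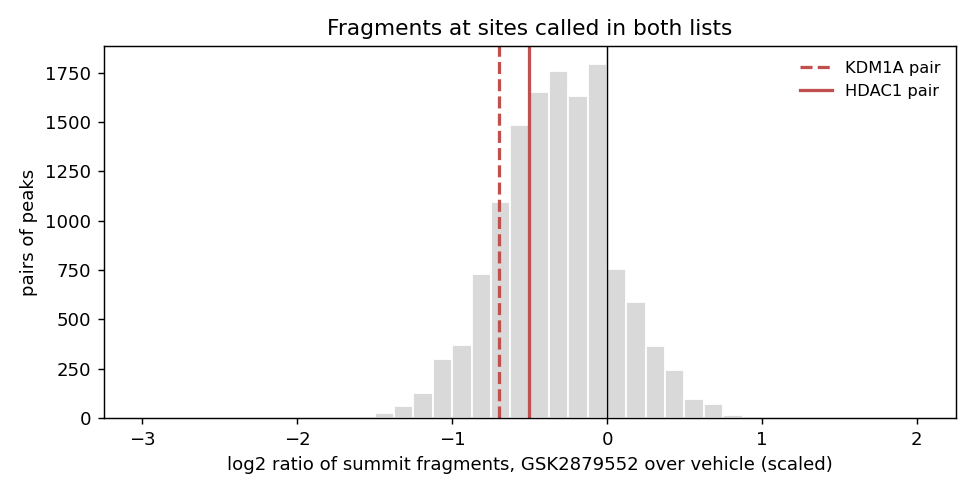
The horizontal axis is the log2 ratio of fragments at the summit, GSK2879552 over vehicle and scaled, and the vertical axis is the number of pairs among all 13200; red lines mark the KDM1A pair (dashed) at -0.69 and the HDAC1 pair (solid) at -0.50. Both lines lie to the left of 0, the HDAC1 line inside the interquartile range of all pairs and the KDM1A line below it.

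HDAC2, the second deacetylase, had no GSK2879552 peak and 1 vehicle peak. At chr6:114321388-114321582 the vehicle summit had 13 fragments over a background of 1.23, an interval of 195 bp. The nearest GSK2879552 summit was 305892 bp away, so no other called site lay close by. The peak stood 121.4 kb into the 190 kb window, and 28.2% of the vehicle list was weaker.

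RCOR1, the scaffold, also had no GSK2879552 peak and 1 vehicle peak. The vehicle summit at chr14:103165841-103166091 had 17 fragments over a background of 1.24, and 54.6% of the vehicle list was weaker. The nearest GSK2879552 summit was 294167 bp away. It lay 165.9 kb from the start and 84.1 kb from the end of the 250 kb window.

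PHF21A, the histone-tail reader, had no GSK2879552 peak and 3 vehicle peaks, all of them near the bottom of the list. Its window is the longest, at 300 kb, and held 10.0 vehicle peaks per Mb, beside 11.8 per Mb in the 170 kb window of KDM1A. Vehicle fragments numbered 11 at chr11:46014708-46015031, 12 at chr11:46068386-46068612 and 10 at chr11:46148794-46148968. Their local backgrounds were 1.38, 1.77 and 1.35, and between 3.66% and 7.20% of the vehicle list was weaker. The sites were spaced by 53668 bp and more in the vehicle list, with widths of 324, 227 and 175 bp; the last is the shortest interval in that list. Their nearest GSK2879552 summit, 56641 to 190674 bp away, was the one just past the end of the window.

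The strength of the 8 vehicle members placed them across the whole list, and the share of vehicle peaks found again in GSK2879552 differed with strength. With the vehicle list cut into 10 equal bins by −log10 p, 19.6% of the weakest bin, which holds the 3 PHF21A sites, overlapped a GSK2879552 peak. The share was 34.6% in the bin of the HDAC2 site, 68.4% in the bin of the RCOR1 and second KDM1A sites, 92.6% in the bin of the shared KDM1A site and 100% in the bin of HDAC1. The 6 vehicle-only members had 10 to 18 fragments with a median of 12.5, against 14 (interquartile range 12 to 17) for all 8091 vehicle-only peaks. The 2 shared members had 21 and 58 fragments in vehicle, against a median of 24 (17 to 35) for all shared vehicle peaks. Local backgrounds of the members ran from 1.36 to 2.02 in GSK2879552 and from 1.21 to 2.07 in vehicle, beside medians of 1.71 for all GSK2879552 peaks and 1.68 for all vehicle peaks; the HDAC1 site was above both medians.

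**Figure D3:**
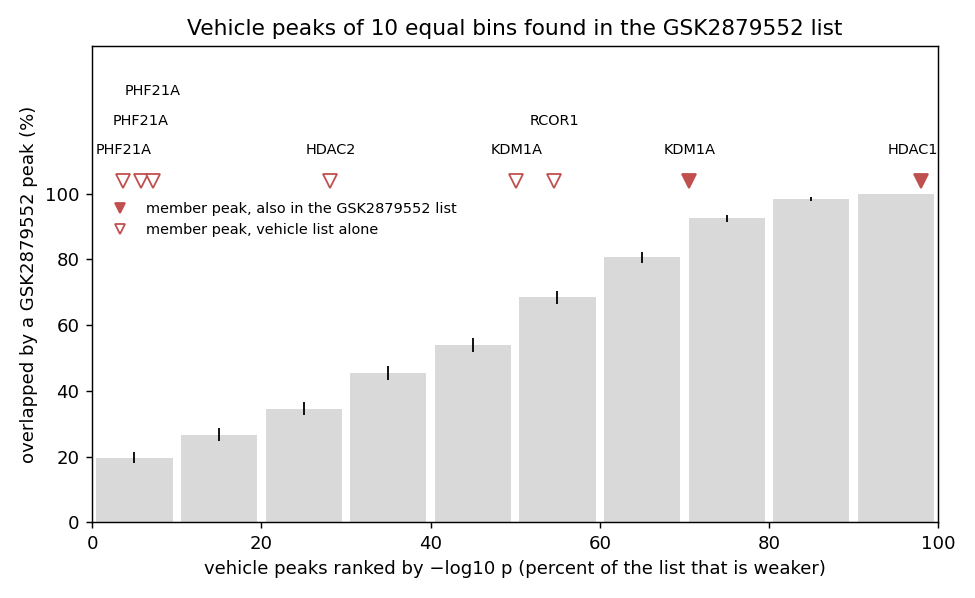
Grey bars give the percentage of vehicle peaks in each of 10 equal bins of the list that overlapped a GSK2879552 peak, with exact 95% intervals, against rank by −log10 p from weak (left) to strong (right); triangles mark the 8 member peaks, filled where a GSK2879552 peak overlapped. The filled triangles, KDM1A and HDAC1, stand in bins with 92.6% and 100%, and the 3 PHF21A triangles stand in the bin with 19.6%.

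A missing peak is not a measured absence of FOXA2. Over the lowest background, the fewest fragments at a listed summit were 8 in GSK2879552 and 7 in vehicle. Over any background, the fewest were 7 in both lists. The 6 vehicle-only members had 10 to 18 fragments in vehicle, over backgrounds of 1.225 to 1.7675, which are above the lowest. How many GSK2879552 fragments lay at these 6 positions is not given by a peak list.

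GSE1 and HMG20B had no peak in either list, within windows of 170 kb and 110 kb. Around GSE1 the nearest peaks before and after the window were 561.5 and 246.5 kb away in GSK2879552, and 557.1 and 838.3 kb away in vehicle. Around HMG20B they were 1012.7 and 338.7 kb away in GSK2879552, and 596.2 and 338.8 kb away in vehicle. The stretch between those neighbouring summits was 977.9 kb (GSK2879552) and 1565.4 kb (vehicle) at GSE1, and 1461.5 kb (GSK2879552) and 1045.0 kb (vehicle) at HMG20B. Stretches at least as long made up 29.4% and 19.6% of the length between GSK2879552 summits for GSE1 and HMG20B, and 14.4% and 21.2% of the length between vehicle summits. In the RefSeq order of coding genes FZR1, MFSD12 and TEKTIP1 come before HMG20B, and GIPC3, TBXA2R and CACTIN after it; GINS2 and C16orf74 follow GSE1.

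Promoter sequences are shown for both genes whose windows held no peak, and for KDM1A and HDAC1, whose windows held a shared site. They are RefSeq promoters of build GRCh38.p14, 250 bases before to 50 after the start of transcription, and cannot be laid over the hg19 peaks; the sequence under the peaks was not analysed here. Each is written 5′ to 3′ on the strand of the gene, which is the plus strand for all 4, at chr16:85613072-85613371, chr19:3572694-3572993, chr1:23019218-23019517 and chr1:32291833-32292132 in that order. Capitals mark the forkhead letters TGTTTAC and the variants TATTTAC and TGTTTGC, searched on both strands.
GSE1 promoter: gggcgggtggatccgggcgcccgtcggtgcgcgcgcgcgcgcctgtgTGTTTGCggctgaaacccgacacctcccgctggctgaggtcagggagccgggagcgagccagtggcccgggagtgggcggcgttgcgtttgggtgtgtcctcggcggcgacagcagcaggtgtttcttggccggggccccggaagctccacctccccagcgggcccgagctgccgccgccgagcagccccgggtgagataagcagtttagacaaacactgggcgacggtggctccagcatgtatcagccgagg
HMG20B promoter: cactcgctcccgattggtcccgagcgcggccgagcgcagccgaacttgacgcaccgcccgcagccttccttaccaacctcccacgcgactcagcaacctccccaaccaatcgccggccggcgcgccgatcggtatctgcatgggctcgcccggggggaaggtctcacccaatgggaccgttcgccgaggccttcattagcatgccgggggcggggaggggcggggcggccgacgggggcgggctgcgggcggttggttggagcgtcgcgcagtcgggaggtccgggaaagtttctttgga
KDM1A promoter: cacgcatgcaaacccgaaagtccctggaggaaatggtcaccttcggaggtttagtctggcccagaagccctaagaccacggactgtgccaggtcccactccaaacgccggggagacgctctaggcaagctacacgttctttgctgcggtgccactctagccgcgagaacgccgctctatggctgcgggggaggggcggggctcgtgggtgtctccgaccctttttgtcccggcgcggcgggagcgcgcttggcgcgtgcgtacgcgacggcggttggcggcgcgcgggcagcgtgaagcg
HDAC1 promoter: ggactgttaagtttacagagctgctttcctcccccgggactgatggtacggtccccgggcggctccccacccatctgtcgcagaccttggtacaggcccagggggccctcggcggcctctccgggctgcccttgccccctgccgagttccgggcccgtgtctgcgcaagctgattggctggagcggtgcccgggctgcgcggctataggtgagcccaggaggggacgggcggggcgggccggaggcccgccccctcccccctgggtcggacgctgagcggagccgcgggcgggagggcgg

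Of the 9 promoters that the table lists for the 7 genes, 3 of them for PHF21A, 1 held any of the 3 forkhead words. It was that of GSE1, with TGTTTGC as printed, beginning at base 48. Over all 35116 promoters in the table, 3.42% held TGTTTAC, 2.67% TATTTAC and 3.89% TGTTTGC, and 9.57% held at least 1; the 3 words are distinct and of equal length, so none contains another. The promoters shown were rich in G and C, at 71.0% (GSE1), 70.3% (HMG20B), 66.7% (KDM1A) and 73.7% (HDAC1), against a median of 58.7% over the table. A match is a description of letters, and its absence speaks only of these words in these windows.

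Peaks just past the window ends show how the choice of window bears on the counts. The closest stood 5.5 kb beyond the end of the PHF21A window in GSK2879552 (chr11:46205489-46205675) and 5.6 kb beyond it in vehicle (chr11:46205519-46205739). That site was in both lists, with 12 fragments in GSK2879552 and 11 in vehicle, the reverse order of both member pairs. Next to the RCOR1 window, vehicle peaks lay 26.5 kb after the end, with 15 fragments, and 51.6 kb before the start, with 9. Neither had a GSK2879552 counterpart. The nearest GSK2879552 peaks lay 210.1 kb after the end and 253.9 kb before the start of that window. Just inside a limit, the member nearest to a window end was the second KDM1A site, at 29.8 kb. For KDM1A, HDAC1 and HDAC2 no peak of either list lay within 100 kb outside the window.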

How the data were processed

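FOXA2 ChIP-seq of PC3 cells was measured in 4 samples, 2 lanes each for GSK2879552 and vehicle, and analysed as 1 peak list per group. The submitters' processing notes name MACS2 2.1.2, BWA 0.7.2, SAMtools 0.1.18 and build hg19. Not given in the sources used here are the options, the treatment of duplicates and any control. The deposited fold enrichment is a ratio of fragments at the summit to local background, 1 added to both. The deposited −log10 p and −log10 q are the authors' peak caller values, and the score in the deposited lists is the −log10 q times 10.

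Summit fragments were computed as the whole number that gave the deposited −log10 p as a Poisson upper tail at the background implied by the fold. It matched within 0.001 for 100% of peaks in both lists. Reads per kb implied by the lowest background were 6.44 in GSK2879552 and 6.17 in vehicle, if no control library was used. Overlap meant at least 1 bp shared; pairs were mutual best overlaps. Ratios were scaled by the lowest backgrounds. Scripts ran on Python 3.11.15 with SciPy 1.17.1 and were tested on simulated data. Intervals are exact binomial at 95%.

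All peaks of the windows are named: every pair and every peak in 1 list alone. The members and lists were chosen with earlier results of these data known. Promoters and gene order come from RefSeq, GRCh38.p14; 7 of 7 genes matched by symbol. Counts for other genes of the LSD1 network were not made, as no hg19 gene positions were used here. For the same reason sites are placed within windows, not within exons or introns. Alternatives comprised limits on −log10 q and fold, other windows and overlap rules, each window left out and a vehicle list of equal length.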

Additional observations from a re-analysis of the deposited data

How the results depend on the processing

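Fewer GSK2879552 than vehicle member peaks were counted under every alternative run for both lists. The median log2 ratio of member pairs was below 0 under each of its alternatives. Most of these kept the same 2 pairs or left 1 of them, so they could hardly change the sign. Windows widened by 50 kb each side added a PHF21A pair with 12 fragments in GSK2879552 and 11 in vehicle. The median was then -0.50, although that pair had more fragments in GSK2879552. With such small counts, single sites move the values. At a −log10 q of at least 5, 5 vehicle members were left (3.73 per Mb). At a −log10 q of at least 10, 1 GSK2879552 member (0.746 per Mb) and 4 vehicle members (2.99 per Mb) were left. In the middle of the windows, with 50 kb taken off each end, densities were 3.125 per Mb in GSK2879552 and 10.9 per Mb in vehicle, since most members lie there; this puts vehicle above the 7.04 per Mb of the genome, where the full windows were below it. Leaving out the KDM1A or the HDAC1 window left 1 GSK2879552 member (0.855 or 0.840 per Mb), and leaving out PHF21A left 5 vehicle members. A vehicle list shortened to the length of the GSK2879552 list, chosen after seeing the data, held 4 vehicle members (2.99 per Mb), 2 of them overlapped. The lower counts under these settings follow from fewer peaks or windows by construction. The overlapped share of vehicle members ran from 14.3% to 50.0% over the alternatives, within the interval of its reported value. Lanes could not be left out in turn. No paired analysis was possible because the lanes of a group are merged in a single list. Depth was 6.44 reads per kb in GSK2879552 and 6.17 in vehicle, if no control was used. Whether depth bears on calls near the threshold was not tested.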
